A study of Tachysurus vachellii and Tachysurus fulvidraco x Tachysurus vachelli and Tachysurus fulvidraco with 9 samples.

Results

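The rows of this catfish liver transcriptome that are described as chemokines, interleukins, tumor necrosis factor (TNF) family members or receptors of these were followed across a hybrid and its parental species. A row is 1 assembled transcript group with 1 value per library. Members were the rows whose description names a chemokine, a C-C or C-X-C motif, a small inducible cytokine, an interleukin or tumor necrosis factor and does not name interferon, and which reached a TPM (transcripts per 1000000) of 1 in at least 3 of the 9 libraries. Of 57710 rows, 204 had such a description, and 186 of these passed the TPM rule, among 51225 rows that passed it overall. The members fell into a chemokine family of 74 rows, an interleukin family of 54 rows and a TNF family of 58 rows. The row just inside the TPM rule with the lowest value had a third-highest library of 1.01 TPM, and the rows just outside had 0.94 to 0.97 TPM.

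Liver RNA came from juvenile fish of 3 lines, with 3 libraries per line. The lines were P. vachelli, P. fulvidraco, and the hybrid yellow catfish Huangyou-1, bred from P. fulvidraco females and P. vachelli males. Eggs of each line were incubated at 28 °C, and 600 juveniles per line were kept in 3 aquaria of 200 fish, fed Artemia nauplii and then compound feed. Each line had its own aquaria, so line and rearing cannot be told apart, and whether a library held 1 fish or a pool is not stated. The replicates of a line are thus separate libraries, and p-values measure the spread between these libraries, which may be technical.

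Chemokines are small secreted proteins that guide leukocytes, and the arrangement of their first cysteines divides them into CC, CXC and smaller groups, each read by G protein-coupled receptors. Interleukins and TNF family ligands are messengers between immune and tissue cells. In mammals, interleukin-6 from liver macrophages acts on hepatocytes through the interleukin-6 receptor and STAT3 to induce plasma proteins of the acute phase, and TNF and interleukin-1 act through NF-kB. Teleost fish carry many CC chemokine copies whose relation to single mammalian genes is often unclear. The names below are therefore those of the deposited descriptions, which were taken from channel catfish (Ictalurus punctatus) for 163 of the 186 members.

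TPM is scaled for transcript length, so levels of different rows can be set side by side. Most members were scarce: 161 rows averaged under 10 TPM over the 9 libraries, 21 averaged 10 to 100 TPM and 4 averaged 100 TPM or more, with a median of 2.79 TPM against 2.15 TPM over all tested rows. The 4 abundant rows were 3 CC ligands and an interleukin ligand. By role the members were 58 ligands, 100 receptors and 28 proteins named after a cytokine or its receptor, such as adaptors and induced proteins. Counting error cannot be given, because a TPM table keeps no read depth.

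Differences were tested on log2(TPM + 1) with limma, in 1 fit of all 9 libraries and all 51225 rows, and a row was called at a Benjamini-Hochberg adjusted p of at most 0.05. TPM means are given ± SD with n = 3 libraries and log2 differences ± SE, and the added 1 TPM makes these differences understate the change of scarce rows. Between the parents, 44 member rows were called higher in P. vachelli, where 27.4% of all tested rows were, and 50 were called lower, where 26.9% were. Against P. vachelli, 44 members were higher in the hybrid beside a background of 15.5%, and 18 were lower beside 14.6%. Against P. fulvidraco, 21 members were higher in the hybrid beside 11.9%, and 14 were lower beside 9.88%. As shares of the 186 members these were 23.7% and 26.9% between the parents, 23.7% and 9.68% against P. vachelli, and 11.3% and 7.53% against P. fulvidraco. The share higher in the hybrid than in P. vachelli was above its background and the share lower was below it, while the other shares were near or under theirs. Without P. vachelli replicate 3, 11 in place of 18 members were lower in hybrid than in P. vachelli livers, and without P. fulvidraco replicate 3, 9 in place of 14 were lower than in P. fulvidraco. In each comparison all called members had libraries that did not overlap between the lines compared (94, 62 and 35 members), as did 98.5%, 98.9% and 99.4% of all called rows. Whichever single library was left out, 79.8%, 69.4% and 65.7% of the member calls held, beside 77.9%, 62.3% and 55.4% of the calls over all rows. Of the 186 members, 6 reached 1 TPM in libraries of 1 line alone, which were 4 through P. fulvidraco, 1 through P. vachelli and 1 through the hybrid, so a high value there was set by the TPM rule. The counts here and below include the calls of these rows. In whole liver, fewer cells of a type and less RNA per cell cannot be told apart.

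Over all tested rows, the shares called higher and lower were 27.4% and 26.9% between the parents. They were 15.5% and 14.6% for the hybrid against P. vachelli, and 11.9% and 9.88% against P. fulvidraco. These shares are the background for the family counts here and the class counts below. Interleukin family rows were lower in P. vachelli than in P. fulvidraco in 21 cases and higher in 7, with a median log2 difference of -0.69 over all 54. In the hybrid, 17 interleukin family rows were higher than in P. vachelli and 6 were lower, with a median of 0.50. The 74 chemokine family rows divided more evenly, with 22 higher and 19 lower in P. vachelli than in P. fulvidraco and a median of 0.09. The 58 TNF family rows had 15 higher and 10 lower between the parents and a median of 0.01. Over all members the median difference was -0.10 between the parents, and over all tested rows it was -0.01. These counts are a description, and no test of the families was made.

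**Figure D1:**
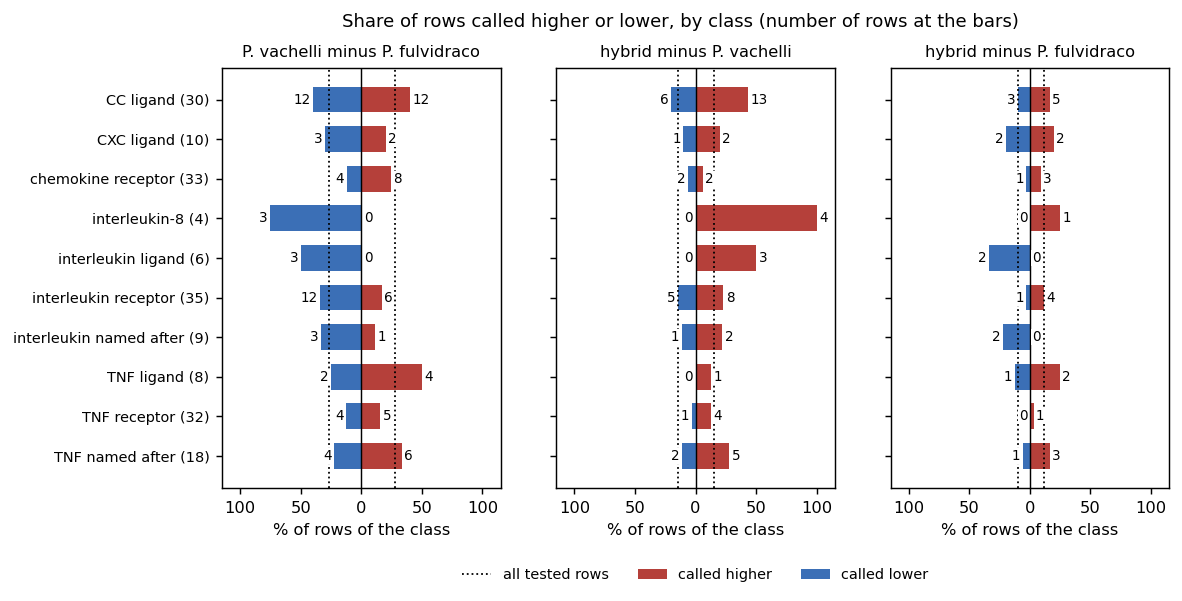
Share of the rows of each class called higher (right) or lower (left) at an adjusted p of at most 0.05, in percent of the rows of the class, for P. vachelli minus P. fulvidraco, hybrid minus P. vachelli and hybrid minus P. fulvidraco. Numbers at the bars are rows called, numbers after the class names are rows in the class, and dotted lines mark the shares over all tested rows; all 4 interleukin-8 rows were higher in the hybrid than in P. vachelli.

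CC chemokine ligands held most of the summed member TPM in the hybrid and P. fulvidraco. In P. vachelli they held 289.2 of 1152 TPM on average, less than the interleukin receptors at 312.7 TPM. The summed TPM of the 30 CC ligand rows was 278, 315.5 and 273.9 in the P. vachelli libraries, 4246, 4602 and 2722 in the hybrid libraries, and 6878, 6471 and 6084 in the P. fulvidraco libraries. The 3 lines did not overlap, and the hybrid lay between its parents. The sum turned on 2 rows, both described as small inducible cytokine A3, an older name of CCL3, a chemokine that in mammals draws monocytes and lymphocytes. The more abundant of them carries the symbol CCL5, the name of another chemokine, so its identity is uncertain. These 2 rows held 79.9 to 83.3% of all member TPM in P. fulvidraco and 58.1 to 74.6% in the hybrid, and at most 0.318% in P. vachelli. Without them, the CC ligand sum was 286.7 ± 23.8 TPM in P. vachelli, 475.3 ± 65.7 in the hybrid and 424 ± 38.4 in P. fulvidraco.

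Small inducible cytokine A3 isoform X1 (TRINITY_DN24410_c0_g3, symbol CCL5 in the table) was the most abundant member. Its TPM was 1.2, 0.12 and 0 in P. vachelli, 2883, 2936 and 1904 in the hybrid, and 5034, 4821 and 4329 in P. fulvidraco. Its lowest P. fulvidraco library exceeded its highest hybrid library. The row was near 0 in every P. vachelli library, and whether a P. vachelli form of the gene sits in another row was not tested. It was lower in P. vachelli than in P. fulvidraco by a log2 difference of -11.77 ± 0.29 (limma adjusted p = 1.3e-08) and higher in the hybrid than in P. vachelli by 10.87 ± 0.29 (limma adjusted p = 5.7e-08). The hybrid mean was 54.4% of the P. fulvidraco mean, and that difference missed the threshold at -0.90 ± 0.29 (limma adjusted p = 0.057).

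The small inducible cytokine A3 precursor (TRINITY_DN24264_c0_g1, symbol CCL3) followed the same order, and a P. vachelli form in another row was not tested here either. Its TPM was 2.46, 1.27 and 2.42 in P. vachelli, 960.5, 1134 and 326.5 in the hybrid, and 1384, 1266 and 1327 in P. fulvidraco. Hybrid replicate 3 was the low library of its line for both rows. The differences were -8.79 ± 0.41 between the parents (limma adjusted p = 6.7e-07) and 7.89 ± 0.41 for the hybrid over P. vachelli (limma adjusted p = 4e-06). The hybrid mean was 60.9% of the P. fulvidraco mean, at a log2 difference of -0.90 ± 0.41 (limma adjusted p = 0.16).

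A C-C motif chemokine 3-like row (TRINITY_DN17244_c2_g1, symbol CCL8) had the opposite distribution. Its TPM was 101.7, 120.3 and 84.66 in P. vachelli, 12.18, 31 and 49.91 in the hybrid, and each P. fulvidraco library listed it at 0. The hybrid mean was 30.4% of the P. vachelli mean, and the lines did not overlap. The row was higher in P. vachelli than in P. fulvidraco (limma adjusted p = 3.5e-06). The hybrid was lower than P. vachelli by -1.88 ± 0.41 (limma adjusted p = 0.0095) and higher than P. fulvidraco (limma adjusted p = 0.00012).

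In 2 other abundant CC ligands the hybrid libraries overlapped those of P. fulvidraco. C-C motif chemokine 3-like TRINITY_DN20845_c0_g1 had 60.02, 73.34 and 71.71 TPM in P. vachelli, 227.7, 279.9 and 251.8 in the hybrid, and 277, 211.1 and 269.8 in P. fulvidraco. Hybrid and P. fulvidraco libraries overlapped, at a difference of 0.01 ± 0.13, while both were above P. vachelli, by 1.87 ± 0.13 for the hybrid (limma adjusted p = 2.7e-05). C-C motif chemokine 3-like TRINITY_DN20769_c0_g1 had 5, 11.15 and 9.04 TPM in P. vachelli, 43.29, 62.52 and 64.15 in the hybrid, and 79.94, 56.87 and 53.8 in P. fulvidraco. It too was higher in the hybrid than in P. vachelli, by 2.66 ± 0.28 (limma adjusted p = 0.00023), and overlapped P. fulvidraco. C-C motif chemokine 3-like 1 TRINITY_DN18418_c0_g1 was graded, with 0, 0 and 0.22 TPM in P. vachelli, 4.23, 4.67 and 5.01 in the hybrid, and 20.06, 35.91 and 22.62 in P. fulvidraco. The hybrid was below P. fulvidraco by -2.23 ± 0.22 (limma adjusted p = 0.00026). The 14 rows described as C-C motif chemokine 3-like of any isoform summed to 214.1 ± 20.5 TPM in P. vachelli, 406.1 ± 49.1 in the hybrid and 376 ± 35 in P. fulvidraco, so the libraries of P. vachelli, from 196.2 to 236.5 TPM, were below all others.

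Several scarcer CC ligands were the reverse, with their highest libraries in P. vachelli. CC chemokine SCYA112, whose symbol in the table is Ccl20 (in mammals the ligand of CCR6), had 10.47, 4.41 and 6.26 TPM in P. vachelli, 0.59, 1.7 and 1.14 in the hybrid, and 0.36, 0.96 and 1.28 in P. fulvidraco. The hybrid libraries overlapped those of P. fulvidraco and were lower than P. vachelli by -1.87 ± 0.34 (limma adjusted p = 0.004). C-C motif chemokine 25-like, named for the chemokine that in mammals draws T cells to thymus and gut, had 3.23, 2.99 and 4.28 TPM in P. vachelli and did not exceed 0.67 TPM in hybrid or 0.23 TPM in P. fulvidraco libraries. It passed the TPM rule through P. vachelli alone, so this order was set by the rule and no test is given. CC chemokine SCYA126 had 2.77, 5.29 and 9.06 TPM in P. vachelli and 0.77, 1.49 and 0.99 in the hybrid, and was listed at 0 in P. fulvidraco. It passed the TPM rule only with its P. vachelli libraries, so the rule favoured this order. CC chemokine SCYA103 was intermediate in the hybrid, with 19.92, 27.29 and 19.01 TPM in P. vachelli, 5.55, 10.86 and 16.41 in the hybrid, and 5.18, 4.96 and 5.73 in P. fulvidraco, and a difference of 1.86 ± 0.31 between the parents (limma adjusted p = 0.0012). Of the 30 CC ligand rows, 12 were higher and 12 lower in P. vachelli than in P. fulvidraco, and 13 were higher and 6 lower in hybrid than in P. vachelli libraries.

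**Figure D2:**
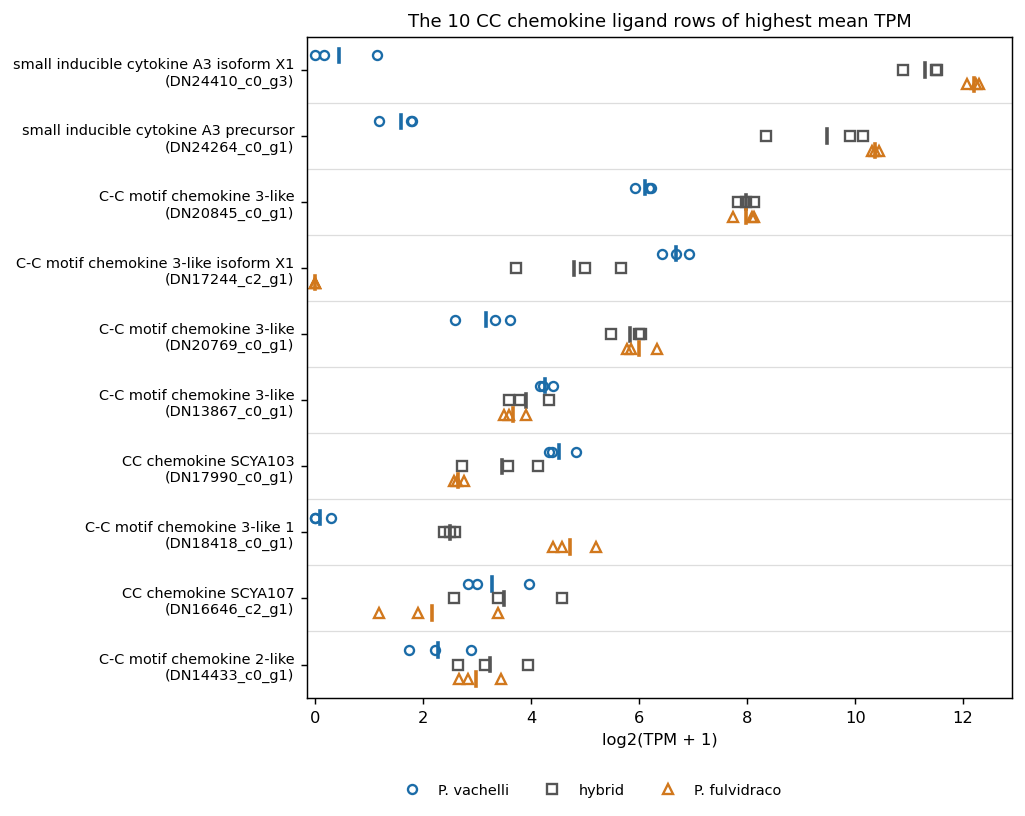
The 10 CC chemokine ligand rows of highest mean TPM, with log2(TPM + 1) on the horizontal axis, 1 marker per library and a vertical line at each line's mean. The 2 small inducible cytokine A3 rows are near 0 in P. vachelli and high in the hybrid and P. fulvidraco, while C-C motif chemokine 3-like isoform X1 is listed at 0 in P. fulvidraco.

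Some member rows were seen with 1 parent and not the other. At 1 TPM or more in all 3 P. fulvidraco libraries and at 0 in all P. vachelli libraries were 11 rows, of which 6 belonged to the chemokine, 2 to the interleukin and 3 to the TNF family. The reverse held for 7 rows, all of them in the chemokine family. These were 5.91% and 3.76% of the members, beside 7.35% and 7.43% of all tested rows. All lines share the rows of 1 table, so such a row may hold the form of a gene that 1 species carries while its counterpart sits in another row. The hybrid, which carries both genomes, had values above 0 in all 3 libraries for 8 of the 11 and 6 of the 7 rows. Its mean was 6.29 to 429% of the P. fulvidraco mean in the first set (median 70.3%) and 19 to 119% of the P. vachelli mean in the second (median 44.3%). No member row was at 0 in all hybrid libraries, beside 0.738% of all tested rows, while 16 (8.6%) were in P. vachelli, beside 11.2%, and 9 (4.84%) in P. fulvidraco, beside 9.8%.

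CXC ligands were led by 1 row. The CXCL2-like chemokine precursor (TRINITY_DN24862_c1_g1), named for a neutrophil attractant of mammals, had 43.43, 58.3 and 70.43 TPM in P. vachelli, 13.82, 14.33 and 20.94 in the hybrid, and 4.85, 6.5 and 7.06 in P. fulvidraco. The 3 lines were graded without overlap. P. vachelli exceeded P. fulvidraco by 3.02 ± 0.22 (limma adjusted p = 9.7e-06), the hybrid was below P. vachelli by -1.75 ± 0.22 (limma adjusted p = 0.00064), and above P. fulvidraco by 1.27 ± 0.22 (limma adjusted p = 0.0049). A C-X-C motif chemokine 9-like row, TRINITY_DN19527_c0_g5, was graded the other way, with 2.17, 1.83 and 1.91 TPM in P. vachelli, 5.19, 5.39 and 6.11 in the hybrid, and 8.08, 7.14 and 10.68 in P. fulvidraco. In mammals CXCL9 attracts activated T cells through CXCR3. In TRINITY_DN19527_c0_g5 the hybrid was above P. vachelli by 1.14 (limma adjusted p = 0.0013). Summed over the 2 rows of this description, that difference was not called, at 0.40 ± 0.19 (limma adjusted p = 0.14). The sum was lower in P. vachelli than in P. fulvidraco, by -0.61 ± 0.19 (limma adjusted p = 0.024). C-X-C motif chemokine 14, listed at 0 in P. vachelli, had 1.68, 1.86 and 2.81 TPM in P. fulvidraco and at most 0.35 TPM in the hybrid, and it passed the TPM rule through P. fulvidraco alone, so its difference is not tested here. Over the 10 CXC rows, 2 were higher and 3 lower between the parents, and the summed TPM was 75.06 ± 9.74 in P. vachelli, 47.97 ± 5.97 in the hybrid and 33.77 ± 8.16 in P. fulvidraco.

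The 4 rows described as interleukin-8, which is the CXC chemokine CXCL8 by function, were all higher in the hybrid than in P. vachelli. Their summed TPM was 3.75, 4.04 and 4.99 in P. vachelli, 14.61, 17.5 and 24.69 in the hybrid, and 12.85, 18.21 and 16.2 in P. fulvidraco. The hybrid and P. fulvidraco sums overlapped, and both lay above every P. vachelli library. Interleukin-8-like TRINITY_DN20094_c2_g1 had 0.49, 0.81 and 0.96 TPM in P. vachelli, 3.29, 2.81 and 5.03 in the hybrid, and 5.91, 6.1 and 4.68 in P. fulvidraco, and was higher in the hybrid than in P. vachelli by 1.41 (limma adjusted p = 0.002). For TRINITY_DN14305_c0_g1 the same call, at 1.12 (limma adjusted p = 0.038), was lost without any of 6 libraries, with adjusted p-values of 0.05 to 0.12, which is every library but hybrid replicate 2 and P. fulvidraco replicates 1 and 2. Interleukin-8 variant 3 (TRINITY_DN13230_c0_g1) stood apart, since the parents overlapped and the hybrid was above both of them. This row passed the TPM rule only with its hybrid libraries.

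Chemokine receptors, which are present on the leukocytes that the ligands draw, were mostly not called. Of 33 receptor rows, 8 were higher and 4 lower in P. vachelli than in P. fulvidraco. In the hybrid 2 were higher and 2 lower than in P. vachelli, and 3 were higher and 1 lower than in P. fulvidraco. The row lower than in P. fulvidraco was C-X-C chemokine receptor type 2-like TRINITY_DN16681_c0_g4. It had 1.23, 1.5 and 1.28 TPM in P. fulvidraco and at most 0.78 TPM in the hybrid. It passed the TPM rule through P. fulvidraco alone, so this order was set by the rule. The summed TPM of the 33 receptor rows was 137.9 ± 7.77 in P. vachelli, 119.8 ± 18.7 in the hybrid and 85.42 ± 10.2 in P. fulvidraco. The most abundant receptor was atypical chemokine receptor 3 (Ackr3), a scavenger of CXCL12, with 28.12, 22.88 and 26.74 TPM in P. vachelli, 13.98, 18.63 and 20.58 in the hybrid, and 16.44, 17.45 and 18.62 in P. fulvidraco. P. vachelli was above P. fulvidraco by 0.54 ± 0.15 (limma adjusted p = 0.013). The difference between hybrid and P. vachelli, -0.53 (limma adjusted p = 0.025), was lost without P. vachelli replicate 1 (0.083), P. vachelli replicate 3 (0.076) or hybrid replicate 1 (0.055).

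Among the chemokine receptors the largest difference between the parents was in a chemokine XC receptor 1-like row (TRINITY_DN28143_c2_g6), named for the receptor that marks a dendritic cell type in mammals. It had 28.49, 22.76 and 40.29 TPM in P. vachelli, 3.41, 4.83 and 1.85 in the hybrid, and 0.75, 0 and 2.92 in P. fulvidraco. P. vachelli exceeded P. fulvidraco by 4.01 ± 0.48 (limma adjusted p = 0.00018), and the hybrid was below P. vachelli by -2.88 ± 0.48 (limma adjusted p = 0.0027), a call that was lost with a pseudocount of 0.1. The symbol in the table for this row is that of an adrenergic receptor, so its identity is uncertain. The chemokine XC receptor 1-like row TRINITY_DN13118_c0_g1 was not called, with 8.92, 3.35 and 2.56 TPM in P. vachelli, 8.86, 0.91 and 6.25 in the hybrid, and 5.93, 6.63 and 2.41 in P. fulvidraco.

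CXCR4, the CXCL12 receptor of leukocytes and stem cells, was present as 2 rows. In 1 of them TPM was 5.86, 8.37 and 6.34 in P. vachelli, 8, 12.88 and 18.28 in the hybrid, and 2.89, 5.21 and 3.93 in P. fulvidraco. In this row the hybrid was higher than P. fulvidraco by 1.45 ± 0.29 (limma adjusted p = 0.0091) and overlapped P. vachelli. The sum of both rows was also higher in P. vachelli than in P. fulvidraco, by 0.69 ± 0.23 (limma adjusted p = 0.03). Chemokine-like receptor 1 (TRINITY_DN21121_c0_g1), named for the receptor of chemerin, had 8.15, 8.23 and 6.81 TPM in P. vachelli, 6.61, 8.83 and 10.11 in the hybrid, and 2.87, 4.96 and 4.57 in P. fulvidraco. The hybrid was above P. fulvidraco by 0.90 ± 0.21 (limma adjusted p = 0.016). A second entry of this description averaged 2.8, 2.17 and 2.39 TPM in P. vachelli, the hybrid and P. fulvidraco and was not called. The gene sum cmklr1, at 0.85, 0.923 and 0.88 TPM, was not called either. All 3 rows described as C-X-C chemokine receptor type 5, the follicle-homing receptor of mammalian B cells, were listed at 0 in every P. fulvidraco library. Together they had 8.03, 12.6 and 9.02 TPM in P. vachelli and 8.58, 4.01 and 1.52 in the hybrid. The symbols are Cxcr1 for TRINITY_DN427_c0_g1 and SSTR5 for TRINITY_DN8097_c0_g1, names of other receptors, so the identity of these rows is uncertain. Atypical chemokine receptor 4-like, a scavenger of CC chemokines, averaged 0.157 TPM in P. vachelli, 1.13 in the hybrid and 1.12 in P. fulvidraco, and was higher in the hybrid than in P. vachelli by 0.86 (limma adjusted p = 0.011).

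Interleukin ligands were few and mostly scarce, and 3 of the 6 rows were lower in P. vachelli than in P. fulvidraco and higher in the hybrid than in P. vachelli. Interleukin-27 subunit beta-like (TRINITY_DN17748_c1_g1), named for the secreted chain that mammals call EBI3, was the abundant one. It had 51.14, 43.88 and 46.79 TPM in P. vachelli, 109.4, 96.79 and 114.3 in the hybrid, and 150.4, 182 and 193.3 in P. fulvidraco. Its grading had no overlap, with -1.86 ± 0.11 between the parents (limma adjusted p = 3.5e-06), 1.16 ± 0.11 for the hybrid over P. vachelli (limma adjusted p = 0.00017) and -0.70 ± 0.11 for the hybrid under P. fulvidraco (limma adjusted p = 0.0037).

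Interleukin-6, the inducer of the acute phase, was scarce and graded the same way. It had 0.05, 0.07 and 0.28 TPM in P. vachelli, 1.28, 1.9 and 2.29 in the hybrid, and 3.61, 4.12 and 4.41 in P. fulvidraco. The parents differed by -2.16 ± 0.21 (limma adjusted p = 5.6e-05) and the hybrid was above P. vachelli by 1.31 ± 0.21 (limma adjusted p = 0.0023). The hybrid was below P. fulvidraco by -0.85 ± 0.21 (limma adjusted p = 0.022), a call lost without P. fulvidraco replicate 2 (0.069), P. fulvidraco replicate 3 (0.065) or hybrid replicate 1 (0.052), and also with a pseudocount of 0.1. Interleukin-15-like, a growth factor of natural killer and memory T cells in mammals, had 3.21, 3.99 and 2.54 TPM in P. vachelli, 8.86, 17.25 and 10.78 in the hybrid, and 5.45, 9.52 and 9.37 in P. fulvidraco. The hybrid overlapped P. fulvidraco and was above P. vachelli by 1.61 ± 0.28 (limma adjusted p = 0.0031). Interleukin-1 beta had 0.71 ± 0.495 TPM in P. vachelli, 1.81 ± 0.77 in the hybrid and 1.36 ± 0.378 in P. fulvidraco and was not called in any comparison.

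Interleukin receptors were the most abundant receptor class, at a summed TPM of 312.7 ± 26.7 in P. vachelli, 307.6 ± 56.5 in the hybrid and 229 ± 35.3 in P. fulvidraco. Of the 35 rows, 6 were higher and 12 lower in P. vachelli than in P. fulvidraco, 8 were higher and 5 lower in hybrid than in P. vachelli libraries, and 4 were higher and 1 lower in the hybrid than in P. fulvidraco. Interleukin-6 receptor subunit alpha-like, the chain that binds interleukin-6 on hepatocytes, was present as 2 abundant rows. TRINITY_DN26081_c2_g1 had 107.4, 78.94 and 102.3 TPM in P. vachelli, 45.92, 43.84 and 61.83 in the hybrid, and 12.84, 11.66 and 16.4 in P. fulvidraco. Its lines did not overlap, with 2.73 ± 0.18 between the parents (limma adjusted p = 5.2e-06), -0.92 ± 0.18 for the hybrid under P. vachelli (limma adjusted p = 0.0056) and 1.81 ± 0.18 for the hybrid over P. fulvidraco (limma adjusted p = 0.00027). TRINITY_DN21960_c0_g1 had 61.62, 54.55 and 62.31 TPM in P. vachelli, 58.65, 45.22 and 92.04 in the hybrid, and 50.81, 57.42 and 67.25 in P. fulvidraco, and all lines overlapped. The sum of both rows was 155.7 ± 19.4 TPM in P. vachelli, 115.8 ± 33.8 in the hybrid and 72.13 ± 10.3 in P. fulvidraco, and was higher in P. vachelli than in P. fulvidraco by 1.1 ± 0.2 (limma adjusted p = 0.0016). Interleukin-6 was thus lower, and the sum of its alpha receptor rows higher, in P. vachelli than in P. fulvidraco. The shared signalling chain, interleukin-6 receptor subunit beta-like (IL6ST), had 6.13 to 7.24 TPM in P. vachelli, 6.51 to 7.95 in the hybrid and 7.5 to 9.33 in P. fulvidraco and was not called.

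Receptors of the interleukin-1 family moved in both directions. Interleukin-1 receptor-like 2 TRINITY_DN28167_c2_g1, named for the receptor of interleukin-36 in mammals, had 44.11, 45.79 and 54.12 TPM in P. vachelli, 43.28, 42.36 and 41.4 in the hybrid, and 9.66, 5.74 and 8.06 in P. fulvidraco. The hybrid libraries were just below those of P. vachelli, a difference of -0.17 that was not called (limma adjusted p = 0.45), and above P. fulvidraco by 2.32 ± 0.16 (limma adjusted p = 3.3e-05). The interleukin-1 receptor-like 2 row TRINITY_DN22839_c1_g2 was graded the other way, with 9.07, 10.25 and 10.43 TPM in P. vachelli, 13.04, 15.18 and 14.03 in the hybrid, and 18.84, 20.93 and 25.77 in P. fulvidraco. The hybrid was below P. fulvidraco by -0.59 (limma adjusted p = 0.014). Interleukin-1 receptor type 2-like, a decoy that binds interleukin-1 without signalling, had 3.5, 1.74 and 1.41 TPM in P. vachelli, 13.09, 7.71 and 17.05 in the hybrid, and 16.09, 18.38 and 17.01 in P. fulvidraco. It was lower in P. vachelli than in P. fulvidraco by -2.55 ± 0.30 (limma adjusted p = 0.00016) and higher in the hybrid than in P. vachelli by 2.07 ± 0.30 (limma adjusted p = 0.0013).

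Interleukin-2 receptor subunit beta (TRINITY_DN19309_c0_g1), a chain that interleukin-2 and interleukin-15 share in mammals, had 20.99, 13.77 and 17.02 TPM in P. vachelli, 5.86, 7.08 and 9.55 in the hybrid, and 0.9, 1.16 and 1.62 in P. fulvidraco. It was graded without overlap, by 3.03 ± 0.22 between the parents (limma adjusted p = 8.9e-06), -1.11 ± 0.22 for the hybrid under P. vachelli (limma adjusted p = 0.0058) and 1.92 ± 0.22 for the hybrid over P. fulvidraco (limma adjusted p = 0.00059). With the 2 other rows of this chain the sum was 21.21 ± 4.03 TPM in P. vachelli, 12.87 ± 5.57 in the hybrid and 7.817 ± 0.822 in P. fulvidraco. Interleukin-10 receptor subunit beta-like had 5.43, 6.14 and 7.98 TPM in P. vachelli, 3.92, 4.35 and 3.53 in the hybrid, and 2.89, 2.63 and 2.61 in P. fulvidraco, higher in P. vachelli than in P. fulvidraco by 1.0 (limma adjusted p = 0.00094).

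For the interleukin-4 and interleukin-17 receptors, rows of 1 description differed in opposite directions. Interleukin-4 receptor subunit alpha TRINITY_DN25881_c1_g1 had 9.24, 13.51 and 10.09 TPM in P. vachelli and 2.96, 2.02 and 2.57 in P. fulvidraco, a difference of 1.76 ± 0.23 (limma adjusted p = 0.00033). TRINITY_DN28158_c2_g1, with the same description, had 1.2, 0.74 and 0.83 TPM in P. vachelli and 8.39, 9.49 and 9.01 in P. fulvidraco, a difference of -2.38 ± 0.18 (limma adjusted p = 1e-05). The hybrid had both, at 4.21, 5.72 and 8.28 TPM of the first and 5.57, 7.39 and 8.45 TPM of the second. Summed over the description, P. vachelli and P. fulvidraco differed by 0.03 ± 0.19 (limma adjusted p = 0.89). Interleukin-17 receptor B likewise had TRINITY_DN23772_c2_g1 at 14.1, 13.85 and 13.53 TPM in P. vachelli and 8.67, 8.27 and 9.02 in P. fulvidraco, and TRINITY_DN18429_c1_g1 at 0.65, 0.69 and 0.54 TPM in P. vachelli and 7.52, 4.19 and 7 in P. fulvidraco. In the hybrid the second row had 9.01, 7.31 and 6.42 TPM, above P. vachelli by 2.39 ± 0.22 (limma adjusted p = 0.00011). Summed over the 3 rows of this description, the hybrid was above P. vachelli by only 0.43 ± 0.14 (limma adjusted p = 0.049). The parents differed in that sum by -0.22 ± 0.14, which was not called (limma adjusted p = 0.22). The 8 rows of interleukin-17 receptors, which in mammals act on epithelia and neutrophil recruitment, summed to 26.81 ± 1.27 TPM in P. vachelli, 43.77 ± 0.845 in the hybrid and 40.27 ± 6.38 in P. fulvidraco, and the P. vachelli libraries were below all others.

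**Figure D3:**
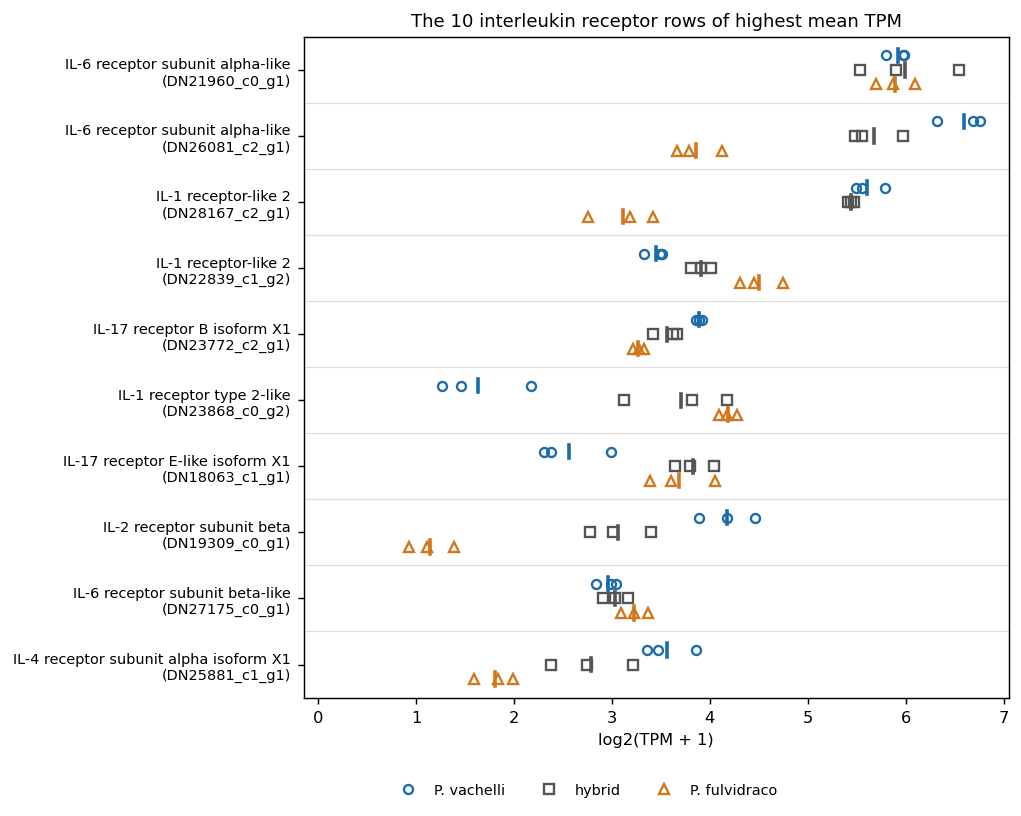
The 10 interleukin receptor rows of highest mean TPM, with log2(TPM + 1) on the horizontal axis, 1 marker per library and a vertical line at each line's mean. Of the 2 interleukin-6 receptor alpha rows 1 is graded from P. vachelli down to P. fulvidraco and 1 overlaps in all lines, and interleukin-1 receptor type 2-like is low in P. vachelli alone.

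Among proteins named after interleukins, the transcription factor nfil3 (nuclear factor interleukin-3-regulated) was the most abundant. Row TRINITY_DN19993_c1_g4 had 5.8, 7.08 and 13.59 TPM in P. vachelli, 58.95, 44.15 and 56.25 in the hybrid, and 46.54, 44.31 and 64.45 in P. fulvidraco. The hybrid overlapped P. fulvidraco and was above P. vachelli by 2.53 ± 0.28 (limma adjusted p = 0.0003). Interleukin-1 receptor-associated kinase 4 (IRAK4), which relays interleukin-1 and toll-like receptor signals, had 2 rows in 1 assembly component. TRINITY_DN21925_c0_g1 had 8.16, 6.77 and 7.18 TPM in P. vachelli, 4.78, 4.62 and 5.18 in the hybrid, and 4.07, 3.82 and 4.74 in P. fulvidraco. TRINITY_DN21925_c0_g2 was listed at 0 in P. vachelli, had 0.98, 0 and 0 TPM in the hybrid, and 4.89, 4.7 and 5.98 in P. fulvidraco, through which alone it passed the TPM rule. Together the IRAK4 rows had 6.77 to 8.16 TPM in P. vachelli, 4.62 to 5.76 in the hybrid and 8.52 to 10.72 in P. fulvidraco, so the hybrid sum was below every library of both parents, a position that rests on this second row. IRAK1, the kinase next in the chain, was lower in the hybrid than in P. fulvidraco, with 3.04, 2.67 and 3.29 TPM against 5, 4.77 and 6.21, a difference of -0.66 ± 0.16 (limma adjusted p = 0.022). That call was lost without P. fulvidraco replicate 3 (0.07) or hybrid replicate 2 (0.063).

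TNF family ligands were scarce, with no row averaging 10 TPM or more, and their summed TPM was 32.28 ± 2.37 in P. vachelli, 35 ± 3.19 in the hybrid and 30.04 ± 1.78 in P. fulvidraco. Of the 8 rows, 4 were higher and 2 lower in P. vachelli than in P. fulvidraco. The tumor necrosis factor-like row TRINITY_DN17819_c1_g1 had 8.18, 7.81 and 6.74 TPM in P. vachelli, 8.04, 8.52 and 8.64 in the hybrid, and 13.29, 12.89 and 15.46 in P. fulvidraco. The hybrid overlapped P. vachelli and was below P. fulvidraco by -0.66 ± 0.12 (limma adjusted p = 0.0053). TNF ligand superfamily member 10-like (TRINITY_DN23534_c0_g1), named for the death ligand TRAIL, had 6.75, 9.44 and 9 TPM in P. vachelli, 7.28, 6.1 and 9.42 in the hybrid, and 2.08, 2.45 and 2.9 in P. fulvidraco. The hybrid again overlapped P. vachelli, here above P. fulvidraco by 1.29 ± 0.19 (limma adjusted p = 0.0023). These rows carry the same symbol, Tnfsf10, and their gene sum was not called between the parents, at 0.09 ± 0.12 (limma adjusted p = 0.55). The descriptions are used here.

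TNF receptors, some of which carry a death domain while others signal through TRAF adaptors, were mostly not called. Of 32 rows, 5 were higher and 4 lower in P. vachelli than in P. fulvidraco, 4 were higher and 1 lower in hybrid than in P. vachelli libraries, and 1 was higher in the hybrid than in P. fulvidraco. TNF receptor superfamily member 1A (TRINITY_DN22669_c1_g1), the death-domain receptor of TNF, had 21.35, 22.31 and 21.64 TPM in P. vachelli, 13.69, 14.9 and 17.93 in the hybrid, and 16.42, 14.2 and 14.29 in P. fulvidraco. P. vachelli was higher than P. fulvidraco by 0.51 ± 0.11 (limma adjusted p = 0.0052) and the hybrid was below P. vachelli by -0.47 ± 0.11 (limma adjusted p = 0.015), a call lost without P. vachelli replicate 2 (0.051). Member 1B-like TRINITY_DN21776_c2_g1, named for the second TNF receptor, was not called, with 14.47 to 18.78 TPM in P. vachelli, 13.1 to 20.88 in the hybrid and 18.44 to 31.27 in P. fulvidraco. Member 5-like TRINITY_DN15715_c0_g3, named for CD40, the receptor that B cells and macrophages use for T cell help, had 0.49, 1.21 and 0 TPM in P. vachelli, 8.48, 7.7 and 6.23 in the hybrid, and 17.78, 11.38 and 7.62 in P. fulvidraco. The hybrid was above P. vachelli by 2.50 ± 0.35 (limma adjusted p = 0.001) and overlapped P. fulvidraco. The symbol in the table is TNFRSF1B, the name of another receptor, so the identity of this row is uncertain. The 2 rows of the same description without a symbol went the other way. They summed to 16.18 ± 3.61 TPM in P. vachelli, 14.87 ± 1.07 in the hybrid and 8.55 ± 3.29 in P. fulvidraco. That sum was higher in P. vachelli than in P. fulvidraco by 0.88 ± 0.24 (limma adjusted p = 0.014). The 9 rows described as member 5 or member 5-like summed to 32.78 ± 6.14 TPM in P. vachelli, 48.56 ± 6.95 in the hybrid and 44.79 ± 7.19 in P. fulvidraco.

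Of the 18 rows named after TNF, such as adaptors and induced proteins, 6 were higher and 4 lower in P. vachelli than in P. fulvidraco. The 3 rows described here were among the higher. The lipopolysaccharide-induced TNF-alpha factor litaf, an endosomal protein first described as a regulator of TNF, had 28.36, 30.88 and 30.26 TPM in P. vachelli, 16.07, 19.48 and 21.05 in the hybrid, and 17.46, 16.18 and 16.75 in P. fulvidraco. Its difference was 0.79 ± 0.11 between the parents (limma adjusted p = 0.00038) and -0.64 ± 0.11 for the hybrid under P. vachelli (limma adjusted p = 0.0028). The adaptor tradd, which binds the death domain of TNF receptor 1, had 11.39, 11.17 and 11.23 TPM in P. vachelli, 7.23, 4.7 and 5.8 in the hybrid, and 5.52, 5.51 and 4.53 in P. fulvidraco. The hybrid was below P. vachelli by -0.84 ± 0.15 (limma adjusted p = 0.004). In both cases the hybrid overlapped P. fulvidraco. The TNF-alpha-induced protein 8-like tnfaip8l2b, named for a negative regulator of immunity in mice, had 5.22, 5.31 and 6.08 TPM in P. vachelli, 4.6, 6.69 and 5.32 in the hybrid, and 1.92, 1.81 and 1.84 in P. fulvidraco. Here the hybrid overlapped P. vachelli instead and was above P. fulvidraco by 1.18 ± 0.16 (limma adjusted p = 0.0014).

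**Figure D4:**
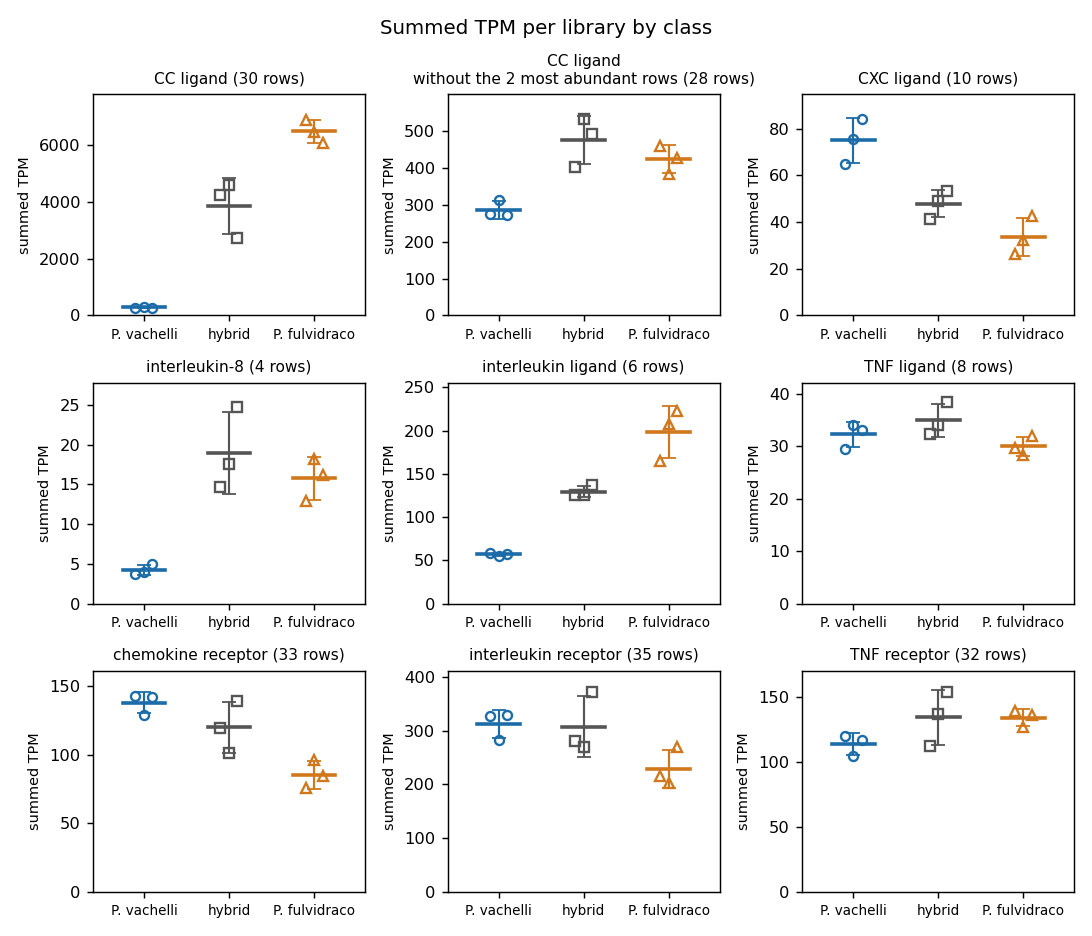
Summed TPM of the member rows of each class in each library, with 1 marker per library, a horizontal line at the mean and bars of 1 SD (n = 3). CC ligands separate the lines chiefly through the 2 most abundant rows, interleukin ligands and interleukin-8 rows are lowest in P. vachelli, and TNF ligand sums lie between 28.43 and 38.56 TPM in every library.

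For the 94 member rows that differed between the parents, the hybrid mean lay between the parental means in 73 (77.7%) and at or above the higher parent in 21 (22.3%). Over all 27855 rows that differed between the parents these shares were 85.2% and 8.19%. The hybrid was called against P. vachelli alone in 41.5% of the 94 rows, against P. fulvidraco alone in 11.7%, against both in 19.1% and against neither in 27.7%, beside 32.8%, 19.2%, 16.5% and 31.5% of all rows that differed. A call against 1 parent and not the other was not tested as a difference in itself.

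The hybrid was called above both parents in 8 member rows, beside 0.863% of all tested rows. These 8 were 4.3% of the members. Among them, TRINITY_DN16567_c0_g1, TRINITY_DN13230_c0_g1, TRINITY_DN22038_c0_g3 and TRINITY_DN26587_c0_g2 passed the TPM rule only with their hybrid libraries. The rule favoured their place above both parents, and the matching share over all rows was not counted. The shares of 4.3% and 0.863% are therefore a description only. It was called below both in 0 member rows with limma, beside 0.636% of all rows, and in 1 member row, IRAK1, when both unadjusted p-values were taken under 0.05. The same unadjusted rule gave 11 rows above both. The count of 8 fell to 4 without hybrid replicate 2 and to 5 without P. fulvidraco replicate 2, and to 3 with a pseudocount of 0.1. All 8 rows were scarce, with no library above 9.73 TPM.

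Interleukin-8 variant 3 (TRINITY_DN13230_c0_g1, symbol Cxcl3) had 0.7, 0.51 and 0.73 TPM in P. vachelli, 3.64, 7.49 and 3.69 in the hybrid, and 0, 1.01 and 1.41 in P. fulvidraco. It was higher in the hybrid by 1.79 ± 0.37 over P. vachelli and by 1.75 ± 0.37 over P. fulvidraco. Fewer than 3 parental libraries reached 1 TPM, so the row passed the TPM rule only with its hybrid libraries and no test is given. Its place above both parents was lost with a pseudocount of 0.1. TNF receptor superfamily member 27 (EDA2R), the receptor of ectodysplasin A2, had 0.8, 1.78 and 0.79 TPM in P. vachelli, 3.86, 4.94 and 3.73 in the hybrid, and 1.55, 1.05 and 1.37 in P. fulvidraco. Its differences were 1.31 ± 0.23 (limma adjusted p = 0.0037) and 1.15 ± 0.23 (limma adjusted p = 0.0096). For both rows the parents overlapped each other and the lowest hybrid library exceeded every parental library.

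TNF-alpha-induced protein 2-like TRINITY_DN16567_c0_g1 had 0.81, 0.61 and 0.75 TPM in P. vachelli, 4.71, 7.31 and 3.39 in the hybrid, and 0.08, 0 and 0 in P. fulvidraco. It reached 1 TPM in hybrid libraries alone, so the TPM rule sets its place above both parents. Rows that reached 1 TPM in the hybrid alone were 1 of the 8 here and 23.1% of the 442 rows above both among all tested rows. The sum of its symbol, EXOC3L1, which also holds rows that are not members, was called against neither parent. That sum differed by 0.19 ± 0.49 from P. vachelli (limma adjusted p = 0.8) and by 0.95 ± 0.49 from P. fulvidraco (limma adjusted p = 0.2). A lipopolysaccharide-induced TNF-alpha factor homolog, TRINITY_DN22038_c0_g3, was listed at 0 in P. vachelli. It had 4.52, 3.06 and 2.09 TPM in the hybrid, and 0.26, 0.81 and 1.14 in P. fulvidraco, and was above P. fulvidraco by 1.28 ± 0.28. EDA2R, described above, was above both parents in 18 of 19 alternatives. Interleukin-8 variant 3, TRINITY_DN22038_c0_g3 and TRINITY_DN26587_c0_g2 (below) had fewer than 3 parental libraries at 1 TPM. They too passed the TPM rule only with their hybrid libraries, so the rule favoured their place above both parents. How many of all rows above both passed in this way was not counted.

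The other 4 rows were chemokines whose call against 1 parent was lost without some single libraries. Chemokine CXCL11.3 (TRINITY_DN14915_c0_g1), of a T cell attractant family, had 1.41, 0 and 2.05 TPM in P. vachelli, 4.99, 6.43 and 4.6 in the hybrid, and 1.05, 0.36 and 1.23 in P. fulvidraco. Its difference from P. fulvidraco, 1.77 ± 0.41 (limma adjusted p = 0.016), was lost without P. fulvidraco replicate 2 (0.059) or hybrid replicate 2 (0.052). CC chemokine SCYA124 (TRINITY_DN16828_c4_g2) had 3.69, 2.76 and 5.22 TPM in P. vachelli, 7.5, 9.73 and 8.45 in the hybrid, and 0.51, 0 and 0 in P. fulvidraco. Its difference from P. vachelli, 0.99 ± 0.25 (limma adjusted p = 0.018), was lost without P. vachelli replicate 1 (0.055), P. vachelli replicate 2 (0.064) or hybrid replicate 2 (0.055).

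Both remaining rows were C-C motif chemokine 3-like 1 and listed at 0 in P. vachelli. TRINITY_DN19110_c0_g2 had 3.83, 3.57 and 3.06 TPM in the hybrid and 1.92, 1.85 and 1.18 in P. fulvidraco, a difference of 0.77 ± 0.20 (limma adjusted p = 0.025). The call was lost in a fit of the compared lines alone, and without P. fulvidraco replicate 2 (0.054), P. fulvidraco replicate 3 (0.074), hybrid replicate 1 (0.059) or hybrid replicate 2 (0.058). TRINITY_DN26587_c0_g2 had 5.94, 7.19 and 5.75 TPM in the hybrid and 2.02, 0.79 and 4.44 in P. fulvidraco, a difference of 1.24 ± 0.36. It passed the TPM rule only with its hybrid libraries, so the rule favoured this order. Its call was lost without any 1 of 8 libraries, all but P. fulvidraco replicate 3, at limma adjusted p-values from 0.059 to 0.11. The call was also lost with a replicate block and in a fit of the compared lines alone. Of the 186 members, 47 shared 22 assembly components with other members, and near-identical CC chemokine copies may have shared reads.

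**Figure D5:**
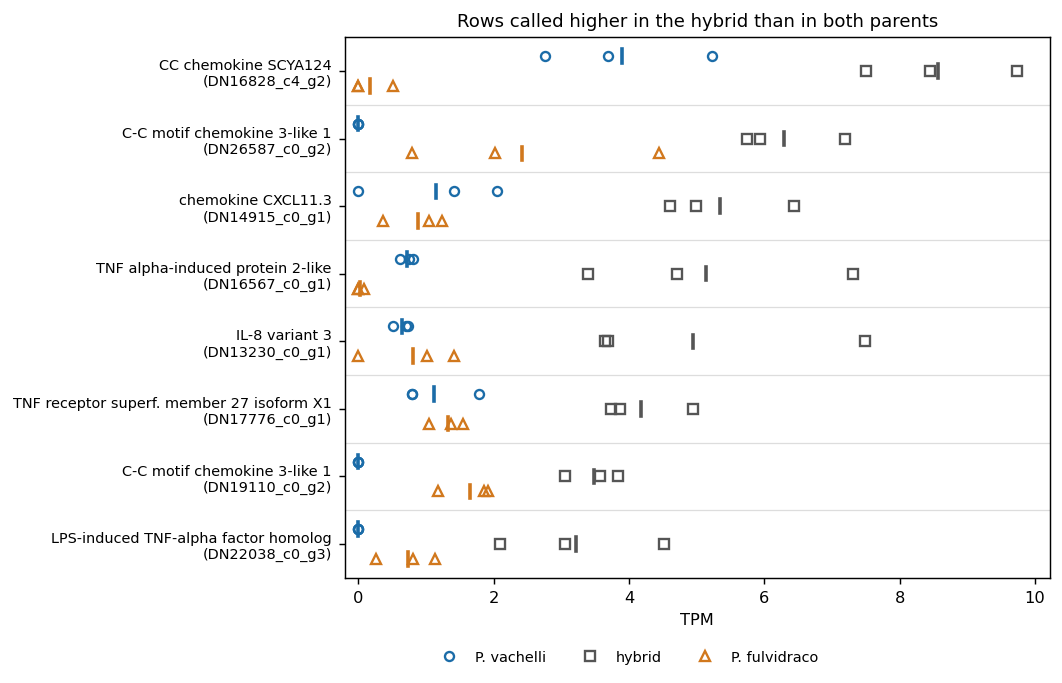
TPM of the 8 member rows called higher in the hybrid than in both parents, with 1 marker per library and a vertical line at each line's mean. In each row all 3 hybrid libraries lie above all 6 parental libraries, and no hybrid library exceeds 9.73 TPM.

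Because a row can hold the form of 1 species, rows were also summed per symbol, or per description where there was no symbol, and 145 member genes were tested among 44612. Between the parents 30 member genes were higher in P. vachelli beside 28.1% of all genes, and 39 were lower beside 27.6%. The hybrid was higher than P. vachelli in 35 member genes beside 15.6% and lower in 16 beside 14.8%. Against P. fulvidraco 15 member genes were higher beside 12.1% and 10 lower beside 10.1%. As shares of the 145 member genes, the counts against P. vachelli were 24.1% higher and 11% lower, so the larger share of higher calls was also seen after summing.

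Against the mid-parent, the mean of both parents on the log2 scale, 13 member genes were higher in the hybrid beside 5.49% of all genes, and 1 was lower beside 2.95%. The highest of these were ccl5, at 4.98 ± 0.25 (limma adjusted p = 9e-06), and ccl3, at 2.01 ± 0.24 (limma adjusted p = 0.0018). Both were lost when the mid-parent was taken on the linear TPM scale, since their hybrid means were 1.09 and 1.35 times the mean of the parents. The ccl3 sum also holds 1 row that is not a member, TRINITY_DN26587_c0_g1, and the nfil3 sum below holds 1 such row too. The ccl4 sum was above the mid-parent by 2.0 ± 0.32 (limma adjusted p = 0.007) and was 4.59 times the parental mean. The genes cxcl3, at 1.77 ± 0.32, and the TNF-alpha factor homolog, at 1.66 ± 0.24, are 1 row each. Both passed the TPM rule only with hybrid libraries, so no test is given for them. The ccl4, cxcl3 and homolog values rest on rows that were above both parents. The CXCL11 sum of 3 rows had 10.48, 4.33 and 4.54 TPM in P. vachelli, 14.61, 16.83 and 16.87 in the hybrid, and 2.82, 4.32 and 7.22 in P. fulvidraco, so the hybrid was above all parental libraries, at 1.46 ± 0.30 over the mid-parent (limma adjusted p = 0.02). The remaining higher genes included C-C motif chemokine 3-like at 0.94 ± 0.11, interleukin-1 receptor-like 2 at 1.07 ± 0.15, cxcr4 at 0.92 ± 0.20 and nfil3 at 1.2 ± 0.25. The lower gene was the IRAK4 row described above, which passed the TPM rule through P. fulvidraco alone, and 6 of the 14 calls, CXCL11, cxcr4, nfil3, interleukin-15-like, tnfaip8l2b and IRAK4, were lost without some single library.

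Genes downstream of these receptors were counted from lists of symbols, each as a gene sum. The background shares are those of all genes given above, at 28.1% higher and 27.6% lower between the parents, 15.6% and 14.8% against P. vachelli, and 12.1% and 10.1% against P. fulvidraco. Of 35 symbols for receptor kinases, STAT factors and their inhibitors, 21 were measured, of which 4 were higher and 3 lower in P. vachelli than in P. fulvidraco, with a median log2 difference of 0.09 against -0.02 over all genes. The hybrid had 3 higher and 2 lower than P. vachelli, and 2 higher and 2 lower than P. fulvidraco. Stat3, the transducer of interleukin-6, had 7.46 ± 0.71 TPM in P. vachelli, 4.6 ± 1.08 in the hybrid and 2.18 ± 0.199 in P. fulvidraco, a parental difference of 1.41 ± 0.17 (limma adjusted p = 0.0002). The feedback inhibitor socs7 was lower in P. vachelli than in P. fulvidraco, by -1.50 ± 0.16 (limma adjusted p = 9.1e-05), and so was socs2, by -2.02 ± 0.42 (limma adjusted p = 0.0035). The inhibitor socs3, which interleukin-6 induces in mammals, was higher in P. vachelli, by 0.71 ± 0.25 (limma adjusted p = 0.037). Of 24 NF-kB pathway genes, 1 of them the member tradd, 6 were higher and 3 lower in P. vachelli, with a median of 0.13, and the hybrid had 1 higher and 2 lower than P. vachelli. Of 8 toll-like receptor and adaptor genes, 1 was higher and 1 lower in each comparison of 2 lines. Of 20 other cytokine and receptor genes, 5 of them members, 5 were higher and 2 lower in P. vachelli than in P. fulvidraco, with a median of 0.03. The most abundant of these, the macrophage migration inhibitory factor mif, had 354 ± 30.9 TPM in P. vachelli, 372 ± 28.1 in the hybrid and 320 ± 17.8 in P. fulvidraco and was not called.

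Of 12 acute phase genes, 3 were higher and 2 lower in P. vachelli than in P. fulvidraco, with a median of -0.11, and 4 were higher and 5 lower in hybrid than in P. vachelli libraries. Hemopexin (hpx), a heme carrier, was higher in the hybrid, at 24030 ± 2230 TPM, than in P. vachelli, at 4639 ± 917, or P. fulvidraco, at 12630 ± 2700, by 2.39 ± 0.20 over P. vachelli (limma adjusted p = 6.8e-05). The fibrinogen chains fga, fgb and fgg were each lower in hybrid than in P. vachelli libraries, by -0.64, -0.47 and -0.43. Against P. fulvidraco, fgb was lower by -0.59 (limma adjusted p = 0.014) and fgg by -0.32 (limma adjusted p = 0.047). The fga difference there was not called, at -0.28 (limma adjusted p = 0.077). Genes of this list thus differed in both directions.

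Some leukocyte marker sums followed the order of some of these results, mostly through a few genes, and their part in them was not tested. Macrophage markers, 11 of 21 found, summed to 477.7 to 570.9 TPM in P. vachelli, 1028 to 1219 in the hybrid and 1213 to 1446 in P. fulvidraco, in the order of the 2 abundant CC ligand rows. That order rests on cd163, a hemoglobin scavenger receptor, at 4.87 to 6.08, 373.77 to 568.42 and 764.88 to 874.03 TPM. Without it the sums overlapped, at 471.6 to 566, 535.4 to 656.9 and 448.3 to 574.1 TPM. Neutrophil markers, 9 of 17 found, summed to 117.5 to 122.6 TPM in P. vachelli, 79.77 to 111.2 in the hybrid and 54.2 to 66.81 in P. fulvidraco, in the order of the CXCL2-like row. That order rests on mmp13, at 45.48 to 50.12, 18.71 to 27.16 and 3.83 to 5.11 TPM, and ncf1, at 24.93 to 26.01, 11.63 to 15.61 and 6.22 to 8.48 TPM. Without them the sums overlapped, at 45.98 to 48.95, 45.24 to 68.44 and 44.15 to 53.92 TPM. B cell markers, 6 of 17, summed to 51.12 to 57.38, 41.7 to 57.38 and 30.92 to 34.52 TPM. The rows described as C-X-C receptor type 5, of uncertain identity, were listed at 0 in P. fulvidraco. T and NK cell markers, 9 of 24, summed to 15.42 to 18.99, 27.1 to 36.08 and 23.37 to 31.88 TPM, beside interleukin-15-like, and at 0 were tcf7 in P. fulvidraco replicates 1 and 3, gata3 in P. vachelli replicate 1 and zap70 in hybrid replicate 1. The T and NK cell order rests on prf1 (perforin), at 0.85 to 1.86, 10.3 to 18.02 and 9.18 to 10.48 TPM, and without it the sums overlapped, at 14.57 to 17.13, 13.45 to 21.83 and 14.19 to 21.4 TPM. Hepatocyte markers, 16 of 18, summed to 36130 to 44980 TPM over all libraries, and thrombocyte markers, 6 of 10, to 24.68 to 35.39 TPM. Pancreatic acinar markers, 10 of 16, summed to 2037 to 3697 TPM in P. vachelli, 6090 to 8127 in the hybrid and 2517 to 6415 in P. fulvidraco, while prss2 was at 0 in all P. fulvidraco libraries; in many fish exocrine pancreas lies within the liver.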

How the data were processed

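The authors deposited 1 table of TPM values for 57710 rows with Trinity-type identifiers, symbols and descriptions, and each library sums to 1000000 TPM within rounding. Per the labels' protocols, poly(A) RNA was sequenced in pairs on an Illumina HiSeq with inserts near 300 bp, and cutadapt and FastQC are named in the submitters' processing notes without versions. For assembly, quantification and annotation, tools and settings were not given in the sources used here. The tissue label says liver, while the extraction protocol speaks of adipose, and the tissue label was followed. Depth is unknown, so no counting interval is given.

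Rows that reached 1 TPM in 3 or more libraries were tested with limma 3.58.1 in R 4.3.3, with an intensity trend, on log2(TPM + 1), with 6 residual degrees of freedom, two-sided, and Benjamini-Hochberg adjustment over all tested rows or genes. Of the members, 104 carry a symbol, and 15 rows that are not members entered 10 member gene sums. Libraries of a line correlated at 0.851 to 0.937 and shared at most 0.72% equal values, so none is a copy of another of its line. Whether they came from different fish cannot be told from these values. The fit was tested on simulated data.

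The members and lists were chosen with earlier results of these data known. Named rows were, per family, the 5 of highest mean TPM, up to 4 per comparison and direction with the largest differences and libraries that do not overlap, all rows outside both parents, and up to 6 genes per direction against the mid-parent. Further members are named to describe their levels. Alternatives were other pseudocounts, filters, scalings, a minimum difference, a replicate block and leaving out each library.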

Additional observations from a re-analysis of the deposited data

How the results depend on the processing

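With a filter of 5 TPM, which leaves fewer members to test, the parents differed in 27 member rows higher and 26 lower, the hybrid was higher than P. vachelli in 27 and lower than P. fulvidraco in 8, and 3 rows were above both parents. The same filter on genes gave 18 lower between the parents, 18 higher than P. vachelli and 5 lower than P. fulvidraco. With a minimum log2 difference of 1, 28 rows were higher between the parents, 9 lower than P. vachelli and 5 lower than P. fulvidraco, and the genes lower than P. vachelli, P. fulvidraco and the mid-parent were 9, 3 and 0. A pseudocount of 0.1 left 3 rows above both parents, and the cause was not tested. The 1 gene lower than the mid-parent became 2 with a pseudocount of 0.1, of 5 or without the trend, 6 with quantile normalization or a linear mid-parent, 3 with the highest row per symbol, and 0 without a filter or with median-ratio scaling, and here too the cause was not tested.

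Leaving out single libraries gave 11 to 17 rows lower than P. vachelli, 9 to 13 lower than P. fulvidraco, 4 to 8 above both parents, and 0 to 1 genes below the mid-parent. With a replicate block, 43 rows were higher and 53 lower between the parents, 43 and 16 in the hybrid against P. vachelli, 20 and 13 against P. fulvidraco, and 8 rows were above both parents, 7 of them among the 8 reported and CXCR4 in place of TRINITY_DN26587_c0_g2, and 0 below; of genes, 30 and 41, 34 and 15, 16 and 10, and 13 and 0 against the mid-parent. No pairing by replicate number was seen, since deviations of same-numbered libraries correlated at -0.112 to 0.014 and 4 of 18 comparisons were best with their own number. Whether same-numbered libraries were handled together cannot be told from these values. Of 1428 values of 76 named results under alternatives, 81 lost the threshold and 0 changed direction. Scalings moved the median of all rows by less than 0.1.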

Other observations

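Rows without a member's description also belong near these results, and were chosen after their values were seen. TRINITY_DN19110_c0_g1, an uncharacterized protein with the symbol Ccl24 that shares an assembly component with a C-C motif chemokine 3-like 1 row, had 9.5, 19.79 and 11.84 TPM in P. vachelli, 53.5, 77.77 and 115.94 in the hybrid, and 14.31, 29.4 and 25.74 in P. fulvidraco. All hybrid libraries exceeded all parental libraries, by 2.50 ± 0.37 over P. vachelli (limma adjusted p = 0.0014) and 1.78 ± 0.37 over P. fulvidraco (limma adjusted p = 0.01). TRINITY_DN26587_c0_g1, with the same description and the symbol CCL3, had 7.9, 17.29 and 21.94 TPM in P. vachelli, 121.38, 64.32 and 157 in the hybrid, and 13.71, 7.84 and 20.46 in P. fulvidraco. It was higher in the hybrid by 2.80 ± 0.46 (limma adjusted p = 0.0026) and 2.94 ± 0.46 (limma adjusted p = 0.0032). Both rows were more abundant in the hybrid than any of the 8 member rows called above both parents.

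The CXCR4 ligand cxcl12, described as stromal cell-derived factor 1, had 23.19 ± 0.894 TPM in P. vachelli, 15.22 ± 5.42 in the hybrid and 10.73 ± 1.53 in P. fulvidraco, and was higher in P. vachelli than in P. fulvidraco by 1.05 ± 0.22 (limma adjusted p = 0.0042). An eotaxin-like row with the symbol CCL11 had 20.06 ± 2.34, 9.21 ± 0.56 and 6.647 ± 2.62 TPM in the same order, and was lower in hybrid than in P. vachelli libraries by -1.04 ± 0.21 (limma adjusted p = 0.0071).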
